A study of Saccharomyces cerevisiae with 6 samples.

Results

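The 10 genes described here code for the enzymes that make pyruvate at the end of glycolysis and for those that pass it on: the pyruvate kinases CDC19 and PYK2, the pyruvate decarboxylases PDC1, PDC5 and PDC6, the pyruvate carboxylases PYC1 and PYC2, and PDA1, PDB1 and LAT1 of the pyruvate dehydrogenase complex. They were taken by name from the array's probe annotation, as probe sets assigned to exactly 1 gene. All 10 were found, each on 1 probe set, among 5449 Saccharomyces cerevisiae genes measured. RNA came from 3 samples of a gcr2 deletion mutant and 3 samples of wild-type FY4, a laboratory strain of S288C descent that needs no amino acid or base supplements. The labels name no parent strain and no marker cassette for the deletion mutant, and they do not say whether replicates were separate cultures. The p-values therefore cover only sample-to-sample spread, which may be technical. Both kinds of cell grew as batch cultures on glucose minimal medium, at 30 °C and 300 rpm, and were harvested in exponential growth.

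Pyruvate kinase transfers phosphate from phosphoenolpyruvate to ADP and releases pyruvate. In yeast growing fast on glucose most pyruvate goes to pyruvate decarboxylase, which yields acetaldehyde for ethanol. Pyruvate carboxylase makes oxaloacetate in the cytosol and so refills the tricarboxylic acid cycle, and the pyruvate dehydrogenase complex makes acetyl-CoA in the mitochondrion. Gcr2 is a co-activator that works with the DNA-binding protein Gcr1 at glycolytic genes, and the comparison of the mutant with the wild-type asked which transcripts depend on it.

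GCR2 itself was listed at intensities of 25.8, 21.4 and 25.3 in deletion samples 1, 2 and 3, against 2180, 2137 and 2298 in wild-type samples 1, 2 and 3. All 3 deletion arrays lay under background, the 95th percentile on the same array of single-gene probe sets that matched no S. cerevisiae gene. Those probe sets were taken to be for another yeast species. The fold is therefore a bound: GCR2 was lower in the deletion by at least 27.5-fold (limma adjusted p = 1.01e-06), as its label states. Across all genes 22.5% were called (limma, adjusted p under 0.05 after Benjamini-Hochberg adjustment over the 5449 genes), 14.1% higher and 8.35% lower in the deletion. Spiked-in poly-A control RNAs read 7.35 ± 0.24 in the deletion and 8.22 ± 0.40 in wild-type (log2 intensity, mean ± SD, n = 3 each). Control probe sets for ribosomal RNA were lower too, at 12.95 ± 0.15 in the deletion and 14.10 ± 0.08 in wild-type for 18S, and at 11.94 ± 0.48 in the deletion and 13.44 ± 0.13 in wild-type for 25S (SD, n = 3 each). Hybridization controls differed less, at 11.43 ± 0.24 in the deletion and 11.58 ± 0.05 in wild-type (SD, n = 3 each). Centring the arrays on the poly-A controls would raise every log2 change given here by 0.88, so all changes are relative to the other genes of the array. A difference in RNA preparation and the deletion cannot be told apart.

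Of the 10 pyruvate genes only CDC19 was called, and it fell. That is 1 of 10, against 22.5% of all genes. Without deletion replicate 1, 2 or 3 the count of members called stayed at 1, against 8.86%, 9.97% and 7.45% of all genes. Without wild-type replicate 1, 2 or 3 it was 1, 2 and 1, against 14.4%, 22.5% and 18.6%. The background share thus moved with the arrays used, and the members' count is not read as a lower share than it. For 3 of the 10 (CDC19, PDC6 and PYC2) the deletion and wild-type arrays did not overlap, against 45.2% of all genes. The median log2 change of the 10 was -0.0018, with 5 values above 0 and 5 below, and that of all genes was 0.02. Every member lay above background on all 6 arrays.

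CDC19 codes for the main pyruvate kinase of cells on glucose, which fructose bisphosphate activates. Its probe set read 24962, 26137 and 25767 in deletion samples 1, 2 and 3, against 31009, 30502 and 31845 in wild-type samples 1, 2 and 3. The lowest wild-type array lay well above the highest deletion array. The mean log2 intensity was 14.64 ± 0.03 in the deletion and 14.93 ± 0.03 in wild-type (SD, n = 3 each). CDC19 fell by 0.28 on the log2 scale (SE 0.04, 95% interval -0.38 to -0.18, limma adjusted p = 0.0079), which is 1.21-fold lower. A change at least as large in either direction was seen in 19% of all genes. Leaving out deletion replicate 1 and wild-type replicate 3 together, the arrays of each group farthest out on the first principal component, ended the call (log2 change -0.25, adjusted p = 0.069). A test against a change of 1.2-fold, rather than against no change, did not call CDC19 (adjusted p = 1).

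PYK2 codes for a second pyruvate kinase, which glucose represses and which does not need fructose bisphosphate. Its intensities were 1965, 2032 and 2113 in deletion samples 1, 2 and 3, against 1648, 1972 and 1480 in wild-type samples 1, 2 and 3. Wild-type replicate 2 reached into the range of the deletion arrays, and the other wild-type arrays lay below it. The log2 change was 0.27 (SE 0.11, 95% interval 0.01 to 0.53) and PYK2 did not pass the test (limma adjusted p = 0.12). Of the 10 genes PYK2 had the widest spread, 0.15 on the log2 scale pooled over both groups, against a median of 0.079 over all genes. Single wild-type arrays moved the value. Without wild-type replicate 2 the log2 change was 0.38 and PYK2 was called higher (adjusted p = 0.022), and without wild-type replicate 3 it was 0.18 and not called (adjusted p = 0.21). Array weights also gave a call (0.29, adjusted p = 0.029).

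**Figure D1:**
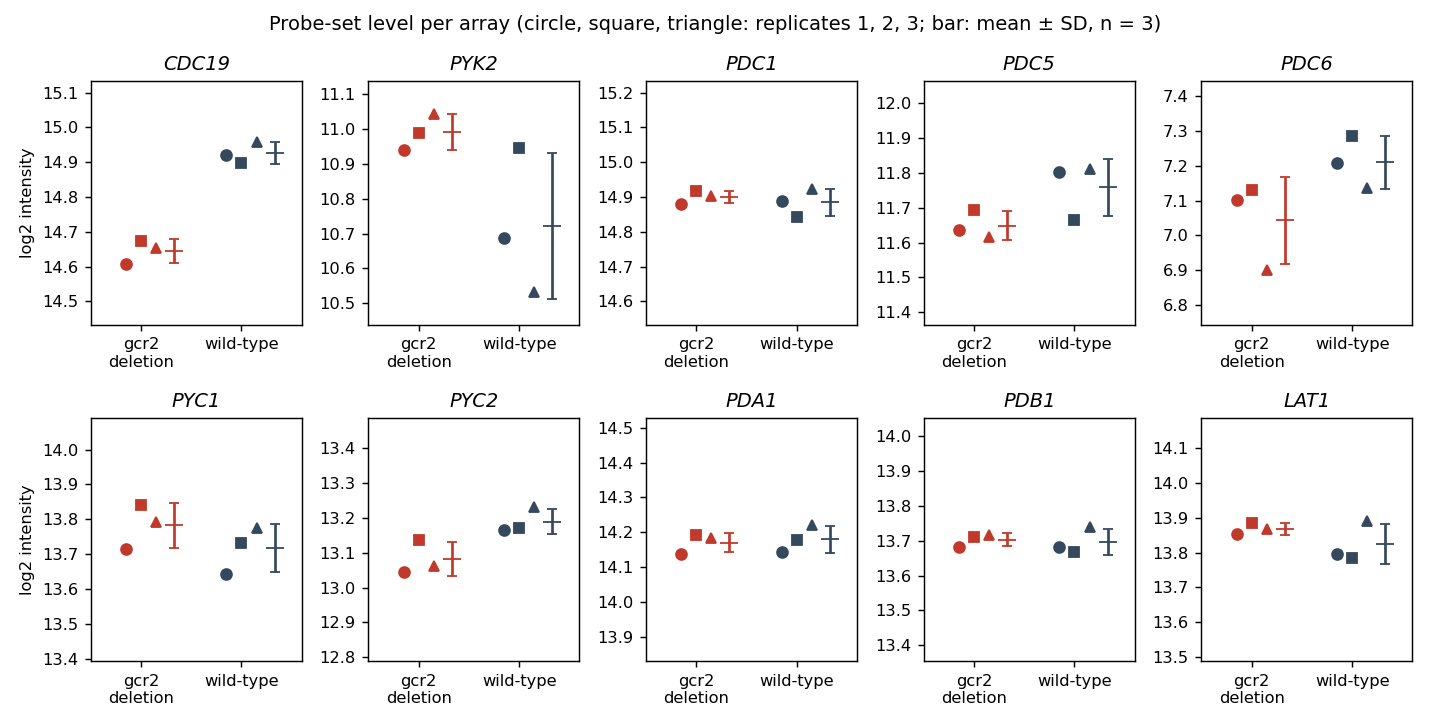
Log2 intensity of each of the 10 genes on each array, deletion at left in red and wild-type at right in dark blue, with mean ± SD beside the points (n = 3 each); every panel spans 0.7 log2 units. CDC19 is lower on all 3 deletion arrays, PYK2 overlaps through wild-type replicate 2, and the PDC1, PDA1, PDB1 and LAT1 points of the groups lie among each other.

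Pyruvate decarboxylase genes did not pass the test. PDC1, the main isozyme, read 30163, 30912 and 30614 in deletion samples 1, 2 and 3, against 30301, 29405 and 31048 in wild-type samples 1, 2 and 3. The wild-type arrays spanned the whole range of the deletion arrays. Its log2 change was 0.02 (SE 0.04), with a 95% interval from -0.08 to 0.11 (limma adjusted p = 0.81), so a fold change outside 0.945 to 1.08 lay beyond that interval. PDC1 shared the very bright end of the array with CDC19 and PDA1. Among 213 other genes with a mean log2 intensity of 14 or more, 12.2% were called, against 23.0% of 2241 genes at 11 to 13, and the part of brightness in these results was not tested.

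PDC5, the second isozyme, known to take over when PDC1 is lost, read 3184, 3315 and 3140 in deletion samples 1, 2 and 3, against 3570, 3248 and 3597 in wild-type samples 1, 2 and 3. Wild-type replicate 2 fell among the deletion arrays while the other wild-type arrays lay above them. The log2 change was -0.11 (95% interval -0.24 to 0.02, limma adjusted p = 0.19). PDC6, a minor isozyme known from sulfur-limited cells, was dim, at 137, 140 and 119 in deletion samples 1, 2 and 3, against 148, 156 and 141 in wild-type samples 1, 2 and 3. The groups only just missed each other, the top deletion array reading 140.2 and the bottom wild-type array 140.6. PDC6 changed by -0.17 (95% interval -0.35 to 0.02, adjusted p = 0.17).

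The pyruvate carboxylases, biotin enzymes of near-identical sequence, did not pass either. PYC1 read 13430, 14675 and 14192 in deletion samples 1, 2 and 3, against 12786, 13606 and 14030 in wild-type samples 1, 2 and 3, and the groups overlapped. Its log2 change was 0.07 (95% interval -0.07 to 0.20, limma adjusted p = 0.42). PYC2 read 8447, 9008 and 8561 in deletion samples 1, 2 and 3, against 9191, 9224 and 9621 in wild-type samples 1, 2 and 3. All 3 deletion arrays lay below all 3 wild-type arrays, yet with a log2 change of -0.11 (SE 0.04) the adjusted p was 0.13. How far the PDC and PYC probe sets also bind their paralogs' transcripts was not tested; all are of the type designed for a single transcript.

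The pyruvate dehydrogenase genes showed the smallest spread of changes among the 4 enzyme groups, from -0.01 to 0.04. PDA1, for the alpha subunit of the first component and the target of the complex's regulatory kinases, read 18022, 18694 and 18585 in deletion samples 1, 2 and 3, against 18081, 18523 and 19079 in wild-type samples 1, 2 and 3. PDB1, for the beta subunit, read 13139, 13396 and 13470 in deletion samples, against 13153, 13012 and 13673 in wild-type samples. LAT1, for the acetyltransferase core, read 14794, 15142 and 14945 in deletion samples, against 14233, 14112 and 15186 in wild-type samples. In each of these genes the ranges overlapped. The 95% intervals of the log2 change were -0.11 to 0.09 for PDA1, -0.09 to 0.10 for PDB1 and -0.06 to 0.15 for LAT1 (limma adjusted p = 0.88, 0.92 and 0.49).

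**Figure D2:**
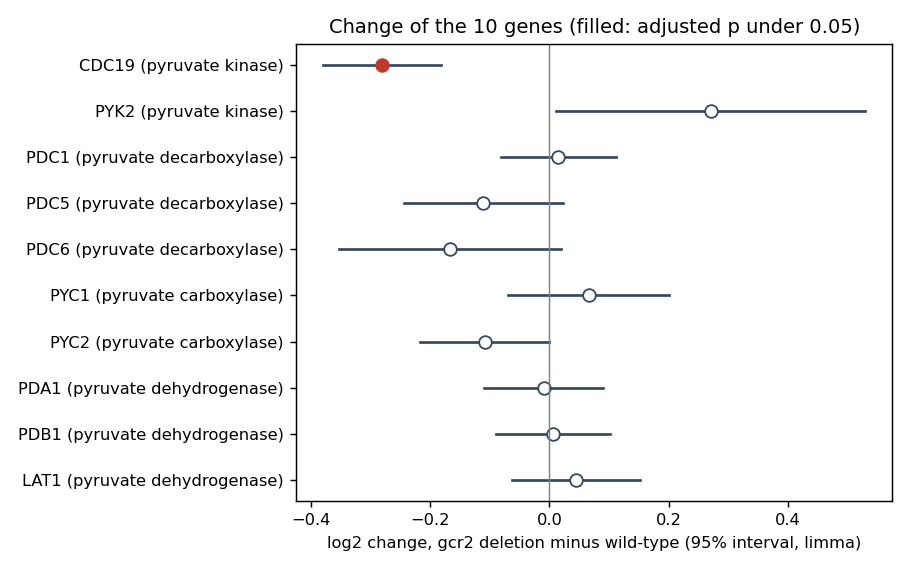
Log2 change (deletion minus wild-type) of each gene with its 95% interval from limma, genes ordered by enzyme; a filled point has an adjusted p under 0.05. CDC19, at -0.28, is the one filled point, the interval of PYK2 lies above 0, and the other 8 intervals include 0.

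Wild-type replicate 3 gave the highest wild-type value in 8 of the 10 genes, and deletion replicate 1 the lowest deletion value in 8 of 10. Deletion replicate 2 was the highest deletion array in 8 of 10. Ratios within an array were compared for 4 pairs of paralogs. Probe sets differ in brightness, so only the change of a ratio is read, not its level.

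The PYK2 over CDC19 log2 ratio was -3.67, -3.69 and -3.61 in deletion samples 1, 2 and 3, against -4.23, -3.95 and -4.43 in wild-type samples 1, 2 and 3. It was higher on every deletion array, by 0.55 on average (two-sided exact permutation p = 0.1, adjusted p = 0.13 over the 4 ratios). With 3 against 3 arrays 0.1 is the smallest p this test can give. Groups also did not overlap for 45.2% of all single genes, and the share over other gene pairs was not computed. The PYC2 over PYC1 ratio was lower on every deletion array, by a log2 difference of -0.17, with -0.70 ± 0.03 in the deletion and -0.53 ± 0.04 in wild-type (SD, n = 3 each, exact permutation p = 0.1, adjusted p = 0.13). The PDC5 over PDC1 ratio was also lower on every deletion array, by a log2 difference of -0.13, with -3.25 ± 0.03 in the deletion and -3.12 ± 0.05 in wild-type (n = 3 each, exact permutation p = 0.1, adjusted p = 0.13). The PDC6 over PDC1 ratio changed by -0.18, and its groups overlapped (exact permutation p = 0.3).

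**Figure D3:**
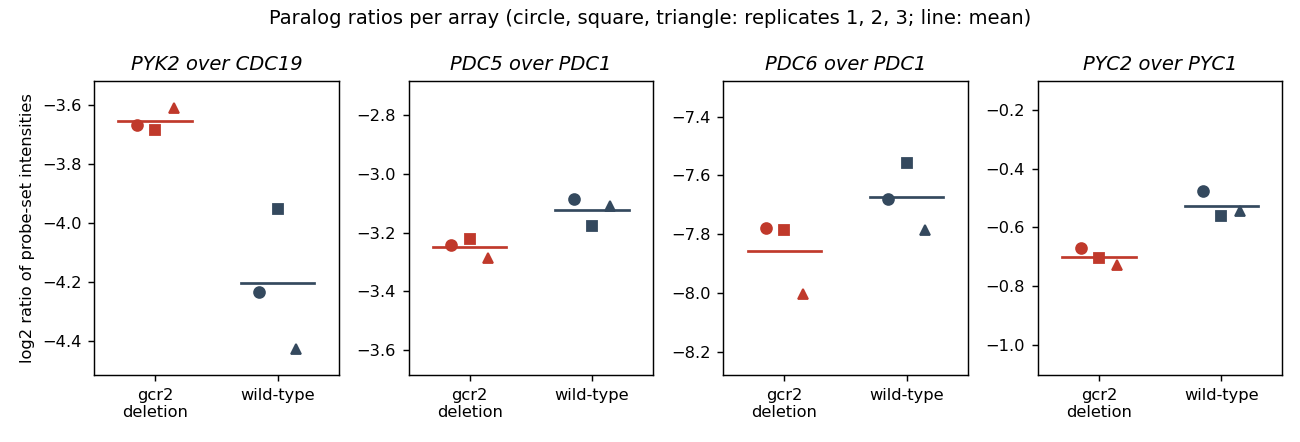
Log2 ratio of the probe-set intensities of 4 paralog pairs on each array, deletion at left and wild-type at right, with the mean as a line; each panel spans 1 log2 unit. PYK2 over CDC19 is higher on all 3 deletion arrays, PDC5 over PDC1 and PYC2 over PYC1 are lower on all 3, and PDC6 over PDC1 overlaps.

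**Figure D4:**
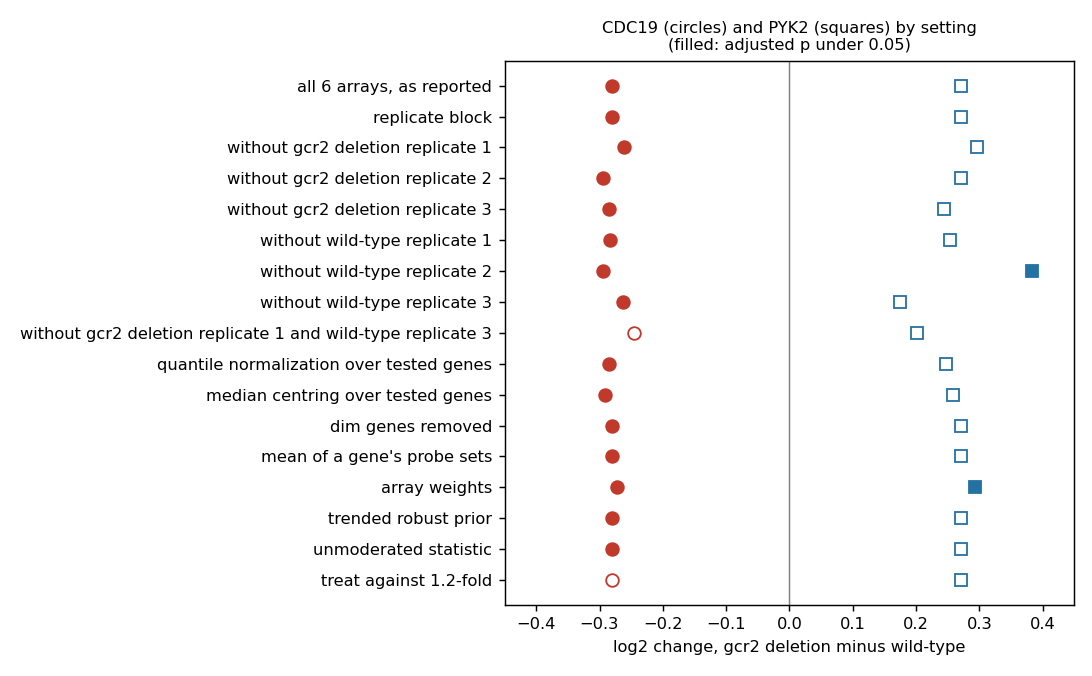
Log2 change (deletion minus wild-type) of CDC19 (circles) and PYK2 (squares) with all arrays and under 16 other settings of arrays, normalization and test (centring on the poly-A controls, under which CDC19 is at 0.595, is not drawn); filled symbols have an adjusted p under 0.05. In the settings drawn CDC19 lies between -0.29 and -0.25 and is filled except in 2, and PYK2 lies above 0 and is filled without wild-type replicate 2 and with array weights.

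Of the 5 genes of the steps just before pyruvate kinase 3 fell, 1 rose and 1 was not called. Over all genes 8.35% fell and 14.1% rose. GPM1, phosphoglycerate mutase, fell by 0.68 (SE 0.04, limma adjusted p = 0.00058), and the enolase genes ENO1 and ENO2 fell by 0.74 (adjusted p = 0.00088) and 0.33 (adjusted p = 0.0049). GPM2, a paralog of GPM1 for which no mutase activity in the cell is established, rose by 1.04, and GPM3 differed by 0.21 (adjusted p = 0.061). GPM2 read 2598, 2828 and 2553 in deletion samples 1, 2 and 3, against 1230, 1453 and 1206 in wild-type samples 1, 2 and 3.

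Of 7 genes for other subunits and regulators of pyruvate dehydrogenase 2 rose and 5 were not called (median log2 change 0.06). As 22.5% of all genes were called, 14.1% of them higher, this count is not read as a result about the list. PTC6, for a phosphatase that acts on Pda1, read 1279, 1337 and 1352 in deletion samples 1, 2 and 3, against 1064, 1117 and 963 in wild-type samples 1, 2 and 3. It rose by 0.34 (SE 0.06, limma adjusted p = 0.018). LPD1, for the dihydrolipoamide dehydrogenase that several mitochondrial complexes share, rose by 0.15 (SE 0.04, adjusted p = 0.032). Both calls were fragile: PTC6 lost its call without any 1 of deletion replicates 1, 2 and 3 (adjusted p = 0.052, 0.063 and 0.081). LPD1 lost its call without any 1 array other than wild-type replicate 2, with adjusted p between 0.052 and 0.13. The kinase genes PKP1 and PKP2 differed by 0.06 and 0.03, PDX1 by 0.02, and the phosphatase genes PTC5 and PTC7 by 0.06 and -0.07.

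None of 4 transport genes was called, against 22.5% of all genes (limma, 0 at an unadjusted p under 0.05). MPC1, MPC2 and MPC3 code for the mitochondrial pyruvate carrier and differed by -0.15, 0.14 and -0.38 (adjusted p = 0.47, 0.23 and 0.39). Their wild-type arrays were far apart: MPC3 read 1670, 2138 and 2514 in deletion samples 1, 2 and 3, against 2550, 4071 and 1891 in wild-type samples 1, 2 and 3. JEN1, the lactate and pyruvate permease gene, differed by -0.13.

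Other enzymes that make or use pyruvate were represented by 12 genes, of which 3 rose, 3 fell and 6 were not called (median log2 change 0.01). The background was 14.1% of all genes higher and 8.35% lower. ALT1 and ALT2, paralogs of which ALT1 codes for the mitochondrial alanine transaminase, went opposite ways. ALT1 read 4078, 4174 and 4240 in deletion samples 1, 2 and 3, against 5576, 5699 and 5285 in wild-type samples 1, 2 and 3, and fell by 0.41 (SE 0.04, limma adjusted p = 0.0037). ALT2 rose by 0.20 (adjusted p = 0.022), a call lost without deletion replicate 1, 2 or 3 or wild-type replicate 1 (adjusted p = 0.079, 0.074, 0.09 and 0.055). The lactate dehydrogenase genes were also split. DLD1, for the mitochondrial D-lactate enzyme, fell by 0.31 (adjusted p = 0.009), and CYB2, for the L-lactate enzyme, rose by 0.40 (adjusted p = 0.012), a call lost without deletion replicate 3 (adjusted p = 0.059). DLD3, a cytosolic relative of DLD1, rose by 0.19 (adjusted p = 0.027), a call lost without deletion replicate 1, 2 or 3 or wild-type replicate 1 (adjusted p = 0.081, 0.087, 0.096 and 0.071). CHA1, for the serine deaminase that forms pyruvate, fell by 0.34 (adjusted p = 0.013), a call lost without deletion replicate 2 or 3 (adjusted p = 0.0504 and 0.061). PCK1, which drains oxaloacetate into phosphoenolpyruvate, differed by 0.58 (adjusted p = 0.052), each deletion array lying above each wild-type array. ILV2 and ILV6, for the acetolactate synthase that starts valine synthesis, differed by -0.01 and 0.04.

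In the acetaldehyde branch 3 of 12 genes rose, 3 fell and 6 were not called (median log2 change 0.07). Beside this stand 14.1% of all genes higher and 8.35% lower. ADH1, the main ethanol-forming dehydrogenase gene, differed by -0.03 (limma adjusted p = 0.6). It read 29713, 30188 and 30440 in deletion samples 1, 2 and 3, against 30630, 30329 and 31215 in wild-type samples 1, 2 and 3. That is the very bright end of the array, and the part of brightness was not tested. ADH5 rose by 1.52, ADH4 by 0.61 and ALD2 by 0.28 (adjusted p = 0.00049, 0.0012 and 0.0067). The aldehyde dehydrogenase genes ALD6, ALD4 and ALD5 fell by 0.56, 0.54 and 0.41 (adjusted p = 0.0088, 0.012 and 0.0041). Without deletion replicate 1 and wild-type replicate 3 together ALD4 and ALD2 lost their calls (adjusted p = 0.061 and 0.058). ALD4 read 4670, 5234 and 5160 in deletion samples 1, 2 and 3, against 6854, 8272 and 6872 in wild-type samples 1, 2 and 3. ALD6 makes the cytosolic acetate that feeds acetyl-CoA without pyruvate dehydrogenase, and ACS1 and ACS2, for the acetyl-CoA synthetases of that route, differed by 0.05 and 0.09 (adjusted p = 0.62 and 0.17).

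**Figure D5:**
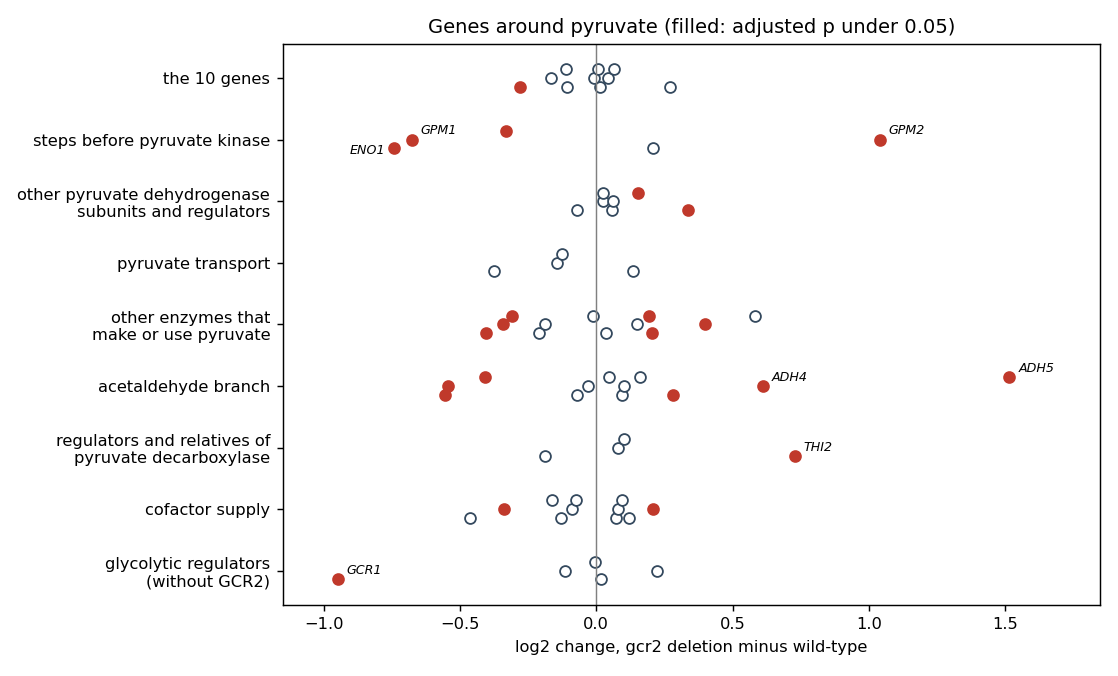
Log2 change (deletion minus wild-type) of each measured gene in the 8 lists around pyruvate and in the 10 genes; filled points have an adjusted p under 0.05, genes beyond 0.6 in either direction are named, points are spread vertically only for legibility, and GCR2, at -6.52, is left out. The 10 genes span -0.28 to 0.27, while ADH5, GPM2, ENO1 and GCR1 lie far from 0.

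Of 11 measured genes that supply the cofactors biotin, lipoate and thiamine pyrophosphate 1 rose, 1 fell and 9 were not called (median log2 change -0.08). Among all genes 14.1% rose and 8.35% fell, so the count is not read as a result about this list. VHT1, the biotin transporter gene, read 2137, 1997 and 2142 in deletion samples 1, 2 and 3, against 2654, 2526 and 2760 in wild-type samples 1, 2 and 3. It fell by 0.34 (limma adjusted p = 0.01), a call lost without deletion replicate 1 and wild-type replicate 3 together (adjusted p = 0.065). BIO3, of biotin synthesis, rose by 0.21 (adjusted p = 0.042), a call lost without deletion replicate 1, 2 or 3 or wild-type replicate 2 or 3, with adjusted p between 0.055 and 0.15. BPL1, which attaches biotin to the pyruvate carboxylases, differed by 0.08. THI80, which makes the thiamine pyrophosphate that decarboxylase and dehydrogenase both use, differed by -0.46 with overlapping groups (adjusted p = 0.1).

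Among 4 regulators and relatives of pyruvate decarboxylase THI2 rose and 3 did not pass, against 14.1% of all genes higher. THI2, an activator of thiamine genes, rose by 0.73 (SE 0.05, limma adjusted p = 0.00069). PDC2, an activator of PDC1 and PDC5, differed by 0.10 and THI3 by 0.08, and ARO10, for a related decarboxylase of aromatic amino acid breakdown, was near background and differed by -0.19 (adjusted p = 0.22, 0.24 and 0.29). Of 6 regulators of glycolytic genes GCR2 and GCR1 fell and 4 did not pass, against 8.35% of all genes lower. GCR2 is the deleted gene, so its fall does not count as a result about the list. GCR1 read 1812, 1881 and 1889 in deletion samples 1, 2 and 3, against 3296, 3499 and 4013 in wild-type samples 1, 2 and 3, and fell by 0.95 (SE 0.08, adjusted p = 0.0014). RAP1, for a DNA-binding protein at glycolytic promoters, differed by -0.12 (adjusted p = 0.18) and TYE7, for another activator of glycolytic genes, by 0.22 (adjusted p = 0.063).

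Over all 8 lists, 11 of 61 measured genes rose, 12 fell, the deleted gene GCR2 among them, and 38 did not pass, against 14.1% of all genes higher and 8.35% lower. Outside the lists, the profiles over the 6 arrays nearest to that of CDC19 belonged to MIS1, for a mitochondrial folate enzyme, KHA1, for an ion antiporter, and BOR1, for a boron transporter. Their root-mean-square differences from CDC19, each gene centred on its own mean, were 0.027, 0.027 and 0.028 log2 units, and their log2 changes were -0.25, -0.29 and -0.26.

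Cell type markers were checked in the same fit, in which 14.1% of all genes were called higher and 8.35% lower. Of the 5 a-specific mating genes BAR1 rose by 0.22, ASG7 rose by 0.74 and 3 were not called, and the receptor gene STE2 read 17734 or more on every array. Of the 4 alpha-specific mating genes STE3 rose, by 0.91, and 3 were not called. STE3 read 364, 339 and 335 in deletion samples 1, 2 and 3, against 189, 176 and 188 in wild-type samples 1, 2 and 3. ASG7 lost its call without deletion replicate 1 or 3 (limma adjusted p = 0.052 and 0.061), and BAR1 without any 1 array other than wild-type replicate 3 (0.067 to 0.12). Of 5 measured auxotrophic marker genes LEU2 rose by 0.28 (adjusted p = 0.0063, and 0.061 without deletion replicate 1 and wild-type replicate 3 together) and 4 did not pass; all 5 lay above background on every array. The part of these differences in the pyruvate genes was not tested.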

How the data were processed

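In all 6 arrays were used, 3 of the gcr2 deletion and 3 of wild-type. The authors deposited 1 table of 10928 probe-set intensities on a linear scale, made with RMA in the affy package of R 2.8.0 per the submitters' processing notes, with a genome build not given in the sources used here. RMA equalises the arrays' distributions, so changes are relative. Log2 was taken here with no pseudocount or further normalization of these deposited intensities. Of 7244 probe sets with 1 annotated gene, 5498 matched a gene of RefSeq assembly R64, used for names only; the brightest probe set stood for each of 5449 genes. Background was set from the 1746 probe sets without such a match, taken to be of another species, at their 95th percentile. limma 3.58.1 in R 4.3.3 (lmFit, eBayes, no covariates, two-sided) tested all genes together and was tested on simulated data. Precision is limited by having 6 arrays; 95% intervals had a median half-width of 0.15 on the log2 scale. The members, lists and tests were chosen with earlier results of these data known. Named are all members, each list's called genes or its gene of smallest adjusted p, further list genes chosen after their values were seen, and the 3 profiles nearest to CDC19, which also had the largest change of the members. Of the listed genes TRP1 was not measured, and LIP3 is an older name of AIM22. Alternatives covered arrays left out, a replicate block, normalization, a filter on dim genes, probe sets averaged, priors, weights and thresholds. Centring on poly-A controls was chosen after seeing the data. Promoter motifs were not analysed here.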

Additional observations from a re-analysis of the deposited data

How the results depend on the processing

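CDC19 kept its direction and its call when any 1 array was left out, with log2 changes from -0.29 to -0.26 and adjusted p from 0.017 to 0.045; over all 17 alternatives its adjusted p ran from 0.0019 to 1. Leaving out 1 array, the members called numbered 1 to 2, all genes called 406 to 1225 and genes called in the other lists 16 to 24. Without deletion replicate 1 and wild-type replicate 3 together, these counts were 0, 328 and 13; array weights gave 2 members, and an adjusted p under 0.01 gave 347 genes and 15 in the lists. The test against 1.2-fold gave 0 members (0 at that test's adjusted threshold, against 2 members at an unadjusted p under 0.05 in the test against no change), 129 genes and 8 in the lists. Replicate numbers did not pair all of the arrays. Deviations of arrays with the same number correlated at 0.53, -0.17 and -0.44. Deletion replicate 1 correlated best with wild-type replicate 1, and deletion replicates 2 and 3 with wild-type replicates 3 and 2 (0.58 and 0.49). The replicate block used the numbers as labelled, so it does not show what a block of the best-correlated arrays would give. With the replicate block 733 genes and 1 member (CDC19, adjusted p = 0.035) were called, and PTC6, LPD1, ALT2, DLD3, BIO3, BAR1 and ASG7 lost their calls. After quantile normalization LPD1, ALT2, BIO3 and BAR1 lost theirs (limma adjusted p = 0.0775, 0.0551, 0.223 and 0.0645). Median centring ended the calls of LPD1, ALT2, DLD3, BIO3 and BAR1 (limma adjusted p = 0.0613, 0.0586, 0.0615, 0.0774 and 0.0774).

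Values near 0 changed sign. PDC1 ranged from -0.0052 to 0.034 (0.043 without deletion replicate 1 and wild-type replicate 3), PDA1 from -0.028 to 0.01 and PDB1 from -0.0082 to 0.028 as 1 array was left out. PDA1 was 0.026 without deletion replicate 1 and wild-type replicate 3 and 0.014 with array weights. PDB1 was 0.038 without those 2 arrays, -0.027 after quantile normalization and -0.0055 after median centring. The cause was not tested.

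Centring on the poly-A controls, chosen after seeing the data, adds 0.88 to each log2 change by its construction. It gave 4952 called genes (4943 higher, 9 lower), 9 members and 48 genes of the lists. CDC19 was then at 0.60 (0.595, adjusted p = 0.059), PDC5 at 0.76, PDC6 at 0.71, PYC2 at 0.77 and PDA1 at 0.87. The 4 paralog ratio changes kept their sign with every array left out in turn. For PYK2 over CDC19, PDC5 over PDC1 and PYC2 over PYC1 the groups did not overlap, so leaving out an array could not change the sign. PDC6 over PDC1, whose groups overlapped, ranged from -0.24 to -0.11.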
